A study of Mus musculus with 9 samples.

Results

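The genes described here are 45 interferon-stimulated genes, taken by name from the gene entries of both deposited count tables, and all 45 were found among the 23366 entries. They were chosen with earlier results of these data known. Contrasts of the members with all genes are therefore descriptions and not independent evidence. RNA-seq counts were used from mSGc, a spontaneously immortalized epithelial line grown as monolayers from the submandibular glands of adult male C57BL/6 mice 12 weeks old, and from IMOK, a spontaneously immortalized line of oral keratinocytes from C57BL/6 mice of the same age. The mSGc libraries were 1 each for passages 2, 4, 10 and 25 (P2, P4, P10 and P25) in media that the labels name after progenitor cells, and 1 each for P10 and P25 in media named after differentiating cells. These names were taken as the serum-free and the serum-containing media of the study, an inference from P2 and P4 having a library in 1 medium only. The 3 IMOK libraries were from cells in their own medium, labelled as early passage, whereas the study's text puts them at the passage number of the P10 mSGc cells. The comparison of all passages with IMOK is therefore not matched for passage, and cell line, medium and experiment cannot be told apart in a comparison of the lines. Reads counted on genes numbered 10879981 at P2, 17089965 at P4, 8891878 and 13186820 at P10 in progenitor and differentiating media, 15438288 and 6237884 at P25 in the same order, and 18444963, 18073866 and 16848411 in IMOK replicates 1, 2 and 3. No mSGc condition had a replicate, and nothing says that the IMOK libraries came from separate cultures, so p-values measure only the spread between these libraries.

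Interferons are secreted proteins that cells make when sensors in the cytosol or in endosomes meet foreign nucleic acid. They bind receptors at the cell surface, and the kinases Jak1 and Tyk2 then phosphorylate Stat2, which acts with Irf9 in a complex that binds the interferon-stimulated response element in target promoters. The targets include the sensors and transcription factors themselves, antiviral effectors, ubiquitin-like modifiers, GTPases and chemokines, and such genes are known to be raised in the salivary gland epithelium of Sjögren's syndrome.

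Levels are given as TPM (transcripts scaled to a fixed total per library), derived from each entry's count and length. The summed level of the 45 genes was 3991 TPM at P2, 839.8 at P4, 1150 and 2149 at P10 in progenitor and differentiating media, 367.1 and 420.2 at P25 in the same order, and 1049, 411.1 and 339.8 in IMOK replicates 1, 2 and 3. The decline over passage was therefore not even: the sum was highest at P2, low at P4, higher again at P10 and lowest at P25. At least 1 TPM was reached by 45 of the genes at P2, 41 at P4, 42 and 45 at P10, 35 and 30 at P25, and 45, 31 and 26 in the IMOK libraries. Over all 9 libraries 22 of the 45 stayed at or above 1 TPM, and 29 did so over the 6 mSGc libraries. Bst2, which tethers budding virus particles to the membrane, was the most abundant member at P2 with 1014 TPM.

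**Figure D1:**
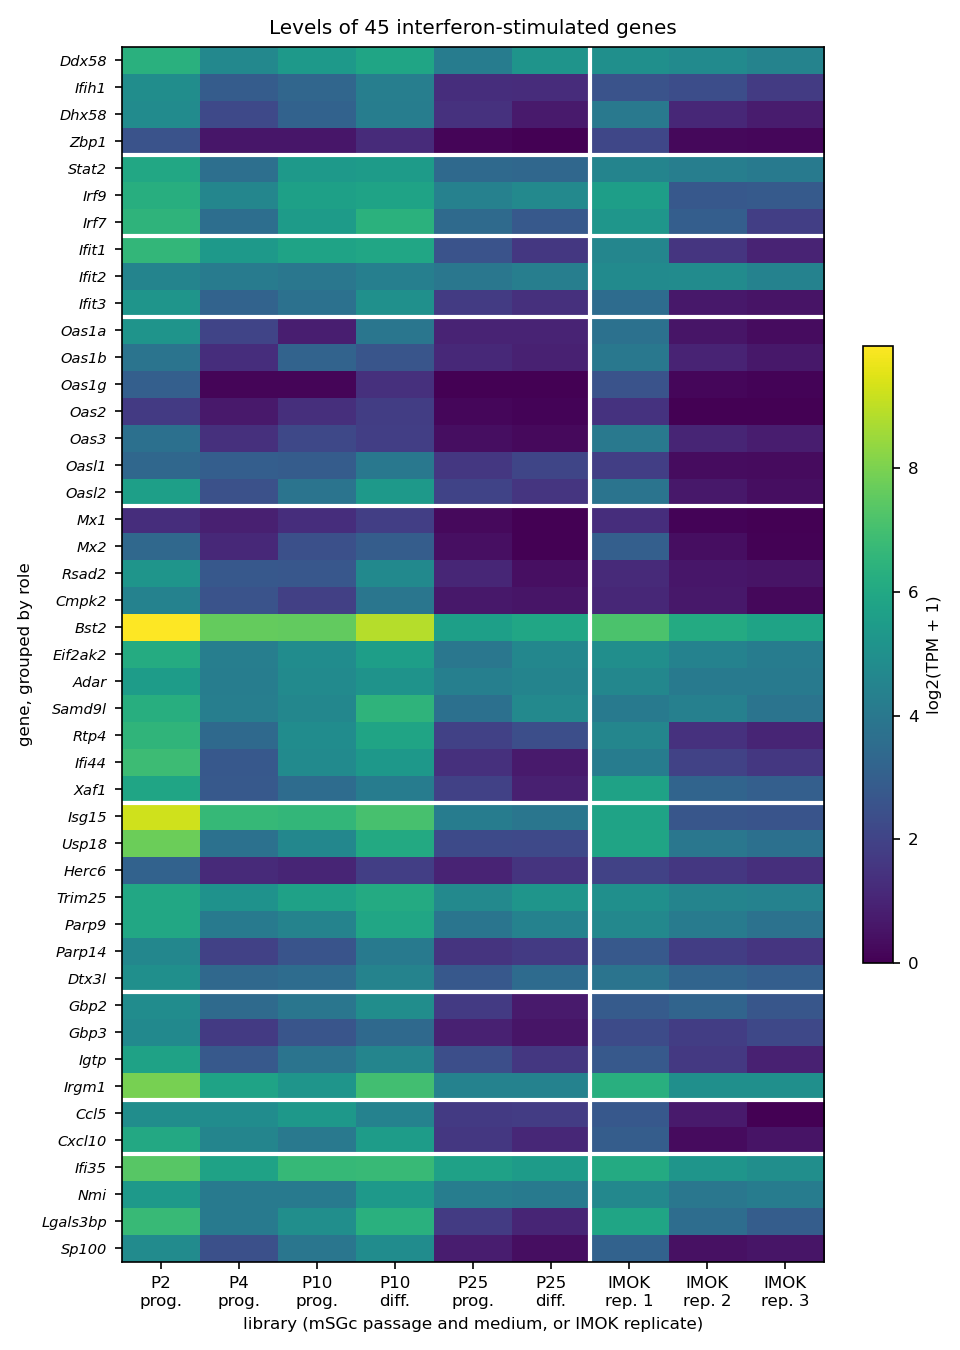
Levels of the 45 genes (rows, grouped by role) in the 9 libraries (columns) as log2(TPM + 1), with darker colours for lower levels; white lines separate the roles and the lines. The P2 column is brightest, the P25 columns are darkest within mSGc, and IMOK replicate 1 is brighter than replicates 2 and 3 in most rows.

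Markers of other cell types were read in the same libraries. All 8 epithelial markers were above 1 TPM in every library, but they did not keep 1 level. Krt8, a keratin of simple epithelia, was at 6326 TPM at P2, 2940 at P4, 672.1 and 3743 at P10 in progenitor and differentiating media, 1172 and 2154 at P25, and 1295, 659.4 and 816.2 in IMOK. The basal keratin gene Krt5 was at 3119, 9234, 9214, 3910, 9386 and 2559 TPM in mSGc in that order and at 4399, 5150 and 4284 TPM in IMOK. Krt8 was highest at P2 and in differentiating media at P10, as was the summed level of the interferon-stimulated genes, but Krt5 was lowest at P25 in differentiating media, where that sum was low. Within mSGc, Krt14 was lowest at P10 in progenitor media. Of 12 leukocyte markers, Cd68 alone reached 1 TPM, between 1.88 and 4.10 TPM in mSGc and at 33.4, 8.74 and 4.58 TPM in IMOK replicates 1, 2 and 3, while the defining markers Cd3e and Emr1 had 0 counts in all 9 libraries and Ptprc was at most 0.112 TPM. Of 8 fibroblast markers, 4 reached 1 TPM at P2, led by Col1a2 at 9.88 TPM, with Lum and Twist2 at 0. Their summed level was 25.7 TPM at P2, 3.58 at P4, 3.57 and 6.03 at P10, 0.678 and 5.04 at P25, and 7.76, 4.66 and 6.08 in IMOK. Within IMOK, Col1a1 was at 5.25, 0.395 and 0.345 TPM in replicates 1, 2 and 3 and Col5a2 at 0.993, 0.0701 and 0.0754 TPM, while Twist2 had the opposite order at 0.358, 3.36 and 4.66 TPM. None of 6 endothelial markers reached 1 TPM in any library. Of the fibroblast markers, Col1a1, Col1a2, Pdgfra and Col5a2 were highest within mSGc at P2, like most of the interferon-stimulated genes, while Dcn was highest at P10 in differentiating media (3.79 TPM) and Col3a1 (2.29 TPM), Lum and Twist2 at P25 in differentiating media. Cd68, Col1a1 and Col5a2 shared IMOK replicate 1. The part of these markers and of the keratins in the results was not tested. Fewer cells of a type and less RNA per cell cannot be told apart in such bulk samples.

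The passages answer how the response genes differed as the line was propagated. Among the transcription factors of the response, Stat2 was at 63.0 TPM at P2, 11.6 at P4, 39.9 and 43.7 at P10 in progenitor and differentiating media, 9.80 and 9.13 at P25, and 21.5, 18.4 and 15.8 in IMOK replicates 1, 2 and 3. Its partner Irf9, the DNA-binding subunit of the complex, was at 76.3, 23.1, 50.7, 54.9, 20.04 and 25.2 TPM in the mSGc libraries in that order, and at 47.4, 5.74 and 6.03 TPM in IMOK. Irf7, which amplifies the induction of interferon genes, was at 88.2, 11.3, 43.5, 83.3, 9.94 and 5.82 TPM in mSGc and at 36.9, 6.93 and 2.62 TPM in IMOK. All 3 factors were high at P2 and P10 and low at P4 and P25, and P25 overlapped the IMOK range for Irf9 and Irf7 but lay below it for Stat2.

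The sensors differed in how far they came down. Ddx58, the cytosolic RNA sensor also called RIG-I, was at 79.9 TPM at P2, 24.4 at P4, 40.1 and 57.7 at P10 in progenitor and differentiating media, 17.2 and 35.2 at P25, and 30.4, 26.1 and 21.1 in IMOK. Ifih1, which senses long double-stranded RNA, was at 28.5, 6.48, 8.90, 18.3, 1.49 and 1.39 TPM in mSGc in the same order and at 4.93, 4.12 and 2.31 TPM in IMOK. Ddx58 at P25 therefore lay around the IMOK levels, whereas Ifih1 at P25 lay below all of them. Dhx58 and Zbp1, a regulator of the RNA sensors and a sensor of Z-form nucleic acid, ended at P25 at no more than 1.66 and 0.109 TPM.

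The effectors held the members at the top of the passage comparison. Isg15, a ubiquitin-like modifier, was at 621.1 TPM at P2, 103.1 at P4, 98.1 and 135.5 at P10 in progenitor and differentiating media, 17.4 and 14.3 at P25, and 54.3, 5.37 and 5.12 in IMOK. Bst2 was at 1014, 196.0, 192.7, 473.5, 49.1 and 59.4 TPM in mSGc and at 140.6, 67.2 and 54.9 TPM in IMOK. Irgm1, a GTPase acting on membranes that enclose pathogens, was at 244.8, 54.4, 35.7, 124.5, 20.7 and 20.5 TPM in mSGc and at 77.6, 30.5 and 30.7 TPM in IMOK. In each of these 3 the P2 library stood above the other 8. Cmpk2, a mitochondrial nucleotide kinase, was at 20.3, 4.92, 2.73, 14.1, 0.553 and 0.499 TPM in mSGc and at 1.14, 0.545 and 0.157 TPM in IMOK. Oas1g, of the family that makes the activator of RNase L, had 75 counts at P2, 2 at P4, 1 and 20 at P10, 0 and 0 at P25, and 82, 2 and 1 in IMOK. It may share reads with close copies such as Oas1a, which was not tested, so its values are uncertain. Mx1, a dynamin-like GTPase that is nonfunctional in C57BL/6 and most other laboratory strains, was at 1.46, 0.824, 1.46, 2.60, 0.198 and 0 TPM in mSGc and at 1.499, 0.0780 and 0 TPM in IMOK.

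In a fit of the 6 mSGc libraries on log2 passage number with a term for the medium, 12451 genes were tested, the 45 members among them. The estimates were negative for 45 of 45 members, against 49.2% of all genes, with a median of -0.997 per doubling of passage, against 0.00 for all genes. Because the members were chosen with earlier results known, this contrast is not independent evidence of a decline. None of the members passed an adjusted p of 0.05 in edgeR's quasi-likelihood F-test (Benjamini-Hochberg adjustment), which called 55 genes lower (0.442%). At an unadjusted p under 0.05, 31 of the 45 were lower (9.09% of all genes). At an adjusted p under 0.05, limma's voom called 0 of the 45 lower, beside 65 of 12451 genes, and DESeq2 called 22 (4.65%). Isg15 had an estimate of -1.32 (SE 0.209) per doubling, Oas1g -3.20 (SE 0.544), Bst2 -1.13 (SE 0.195), Irgm1 -0.95 (SE 0.171) and Cmpk2 -1.46 (SE 0.281), with adjusted p of 0.0560, 0.0669, 0.0685, 0.0727 and 0.0861 in edgeR's quasi-likelihood F-test (Benjamini-Hochberg adjustment). These 5 had the smallest p among the members, so each of the members missed the threshold. The estimate of Oas1g ran from -5.09 without the P10 library in progenitor media to -2.71 without P4. Without the P10 library in progenitor media 7 members were called lower, beside 250 of all 12455 genes tested, and the number at an unadjusted p under 0.05 was 9 without P2, beside 697 of 12359 genes in either direction, and 18 without P25 in progenitor media, beside 957 of 12280.

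Differences between single libraries, on the scale of log2 CPM with TMM scaling and a pseudocount of 0.5, locate the decline in steps. They have no replicate check. From P2 to P4, 40 of the 45 members were at least 2-fold lower, against 7.15% of 13306 genes, with a median difference of -2.16. From P4 to P10 in progenitor media 11 of the 45 were at least 2-fold higher (7.71% of all genes), with a median of 0.49, and from P10 to P25 31 of the 45 were at least 2-fold lower (11.2%), with a median of -1.77. Across the whole span from P2 to P25, 42 members were at least 2-fold lower (13.7%), with a median of -3.26. The medians over all genes for these 4 differences lay between -0.02 and 0.00. A course that went down to P4, up to P10 and down to P25 was seen in 31 of 45 members and 26% of all genes. A decrease at every step was seen in 9 members (6.5%), namely Zbp1, Oas1g, Oasl1, Rsad2, Cmpk2, Bst2, Isg15, Irgm1 and Cxcl10, and an increase at every step in 0 members (4.8%). The step from P4 to P10 was small in most of the 9, and for Oas1g, with 2 and 1 counts, and Zbp1, with 10 and 5 counts, its sign is within counting error. On this scale P2 was the highest mSGc library for 38 members, against 19% of all genes.

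Single members stood far apart in size. From P2 to P25 the most negative differences among members with at least 5 TPM in 2 or more libraries were those of Ifi44 (-5.64), Usp18 (-5.36) and Lgals3bp (-4.98), the second of which encodes a protease that removes Isg15 and dampens receptor signalling. The smallest were those of Ifit2 (-0.28), Nmi (-0.93) and Adar (-0.98). Ifit2, which like Ifit1 and Ifit3 encodes a protein with tetratricopeptide repeats that binds viral RNA or host translation factors, lay between 14.6 and 21.6 TPM in the mSGc libraries and between 20.8 and 27.3 TPM in IMOK. Its neighbours covered a far wider range, from 2.05 to 97.1 TPM for Ifit1 and from 1.59 to 36.2 TPM for Ifit3 within mSGc. Ifit3 has a close copy, so its reads may be divided between both genes.

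**Figure D2:**
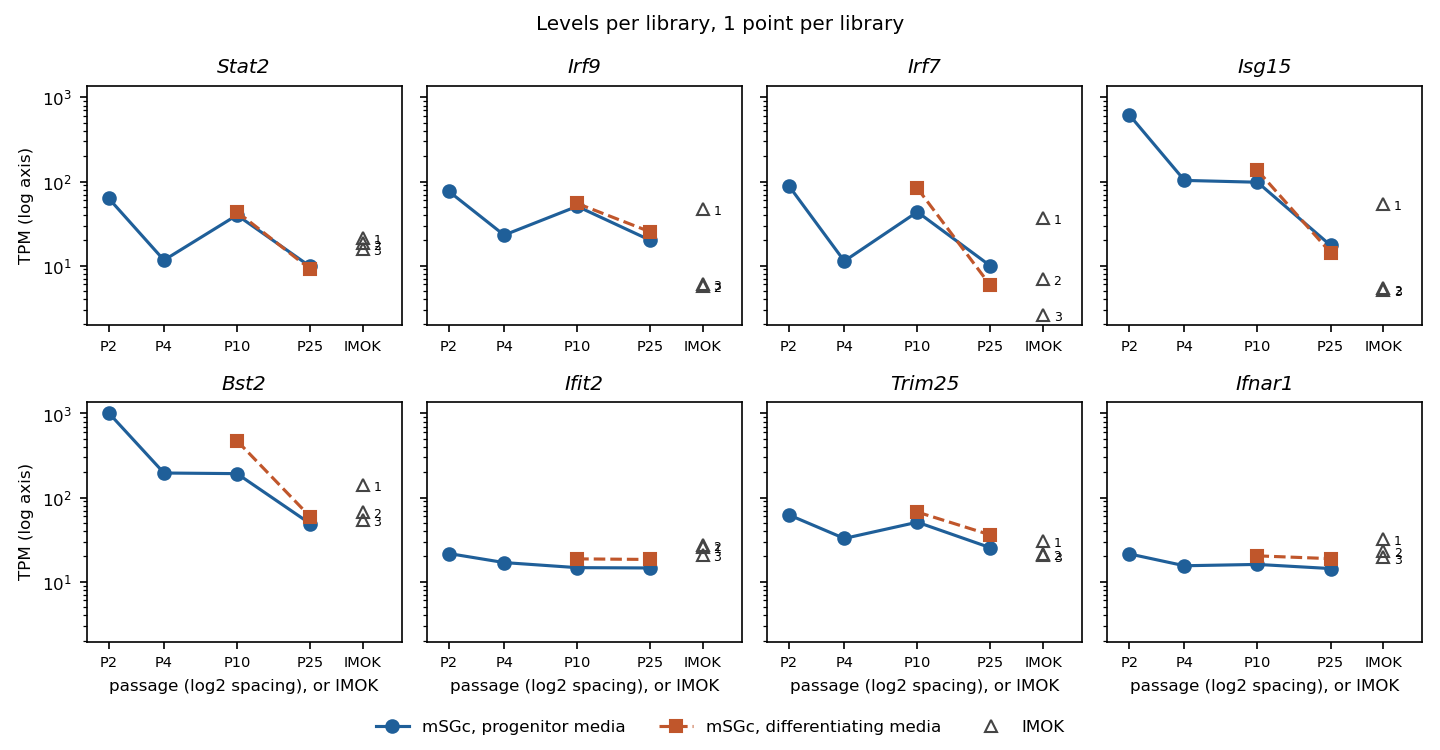
Levels in TPM (log axis) of 7 interferon-stimulated genes and the receptor gene Ifnar1, with 1 point per library; circles and squares are mSGc in progenitor and differentiating media at the passages on the horizontal axis, and triangles are IMOK replicates, numbered. Stat2, Irf9 and Irf7 dip at P4 and stand higher at P10, Isg15 and Bst2 are highest at P2, and Ifit2 and Ifnar1 stay within a narrow range.

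The medium was compared at P10 and at P25, with 1 library in each medium at each passage. At P10 the members were mostly higher in differentiating media: 17 of 45 were at least 2-fold higher, against 7.73% of all genes, with a median difference of 0.82 against 0.00 for all genes. At P25 the median was -0.29, against -0.03 for all genes, and 8 of 45 were at least 2-fold lower (5.1%). That count was 1 with a pseudocount of 2, and the 8 members had between 4 and 17 counts in the P25 library in differentiating media. In 7 other members a P25 library had at most 3 counts, and with these set to 3 counts the median was -0.22. The largest differences at P10 were those of Oas1a (3.34), Cmpk2 (2.099) and Rsad2 (1.98), and the most negative were those of Ccl5 (-1.03), Oas1b (-0.73) and Oas3 (-0.51). That of Oas1a is uncertain, with 7 counts at P10 in progenitor media and reads that may be divided with Oas1g. At P25 the largest were those of Samd9l (0.89), Ddx58 (0.84) and Dtx3l (0.65), and the most negative those of Xaf1 (-1.54), Gbp2 (-1.48) and Rsad2 (-1.34).

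Samd9l, an antiviral factor that restricts translation, was at 23.8 and 90.0 TPM at P10 in progenitor and differentiating media and at 11.8 and 25.1 TPM at P25, with 75.5 TPM at P2, 18.3 at P4 and 16.3, 19.5 and 13.2 in IMOK. Parp9 was at 21.0 and 59.1 TPM at P10 and at 13.7 and 20.6 TPM at P25, with 61.9 at P2, 16 at P4 and 24.1, 16.7 and 12.5 in IMOK. Its partner Dtx3l, a ubiquitin ligase, was at 10.6 and 21.1 TPM at P10 and at 5.65 and 10.2 TPM at P25, with 30.3 at P2, 9.37 at P4 and 13.3, 8.37 and 6.91 in IMOK. For these 3 genes the differentiating library was the higher at both passages. Parp9 and Dtx3l overlap by 334 bases of exon on opposite strands, and reads in that stretch cannot be assigned without strand.

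Other members were higher in differentiating media at P10 and not at P25. Rsad2, also known as viperin, an enzyme that makes a chain-terminating nucleotide, was at 5.57 and 25.4 TPM at P10 and at 1.09 and 0.336 TPM at P25, with 35.7 at P2, 5.77 at P4 and 1.30, 0.521 and 0.429 in IMOK. Gbp2, a GTPase that coats pathogen vacuoles, was at 14.0 and 29.0 TPM at P10 and at 2.204 and 0.649 TPM at P25, with 27.9 at P2, 9.89 at P4 and 6.26, 8.36 and 5.34 in IMOK. In both genes the sign was positive at P10 and negative at P25. The chemokine gene Cxcl10 was at 15.6 and 44.7 TPM at P10 and at 2.03 and 1.16 TPM at P25, with 63.7 at P2, 22.6 at P4 and 6.72, 0.211 and 0.454 in IMOK. Lgals3bp, a secreted glycoprotein gene, was at 29.3 and 80.3 TPM at P10 and at 2.33 and 1.03 TPM at P25, with 103.9 at P2, 16.1 at P4 and 57.8, 10.8 and 6.62 in IMOK. Cmpk2 stood with them at P10 and had almost equal levels in both media at P25.

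In the fit of medium with passage as a covariate, 43 of 45 members had a higher estimate in differentiating media, against 48.6% of 12451 genes, and the median was 0.98 on the log2 scale. With the P10 and P25 libraries alone, paired by passage, 31 of 43 members tested had a higher estimate and 12 a lower one, the median was 0.33, and 0 were called, beside 90 higher and 33 lower of all 11938 genes. No member passed: edgeR's quasi-likelihood F-test (Benjamini-Hochberg adjustment) called 0 of 45 (0.0241% of all genes were called higher), with 6 of 45 at an unadjusted p under 0.05 (5.05%). At an adjusted p under 0.05, voom called 0 members higher, beside 0 of 12451 genes, and DESeq2 called 1 (1.55%). Samd9l had an estimate of 1.61 (SE 0.426), Oas1g 5.43 (SE 1.55), Cmpk2 1.97 (SE 0.669), Dtx3l 0.89 (SE 0.336) and Parp9 1.08 (SE 0.421), with adjusted p of 0.303, 0.342, 0.464, 0.545 and 0.565 in edgeR's quasi-likelihood F-test (Benjamini-Hochberg adjustment). The estimate of Oas1g ran from 1.79 without the P10 library in differentiating media to 9.70 without the P10 library in progenitor media. The direction rested on the P10 library in differentiating media: without it 15 of 45 estimates were positive and 30 negative, and 1 was at an unadjusted p under 0.05 (442 of 12873 genes). That number was 17 without the P10 library in progenitor media, where it was also larger over all genes (1992 of 12455 in either direction, against 1018 of 12451 with all libraries), and 16 without the P25 library in differentiating media (1114 of 13236).

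Whether the medium difference itself differed with passage was tested as an interaction with log2 passage, which left 2 residual degrees of freedom over 13158 genes. The estimate was negative, meaning a smaller or more negative medium difference at later passage, for 42 of 45 members (50.8% of all genes), with a median of -1.68. edgeR's quasi-likelihood F-test (Benjamini-Hochberg adjustment) called 0 members lower (0% of all genes) and 12 were lower at an unadjusted p under 0.05 (2.42%). At an adjusted p under 0.05, voom called 0 members lower, beside 0 of 13158 genes, and DESeq2 called 2 (0.137%). Rsad2 had an estimate of -3.39 (SE 0.755), Gbp2 -3.27 (SE 0.818), Cxcl10 -2.69 (SE 0.703), Cmpk2 -2.24 (SE 0.590) and Lgals3bp -3.49 (SE 1.08), each with an adjusted p of 1.0 in edgeR's quasi-likelihood F-test (Benjamini-Hochberg adjustment). Without the P25 library in progenitor media 12 members were called lower, beside 160 of all 13027 genes, and 27 had an unadjusted p under 0.05, beside 1321 of all genes in either direction. The members at that threshold numbered 22 without P2, 21 without P4 and 19 without P10 in progenitor media, beside 253 of 13040, 271 of 12983 and 1021 of 13200 genes. The P10 and P25 differences are thus given as measured, and a difference between them was not shown by the planned test.

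**Figure D3:**
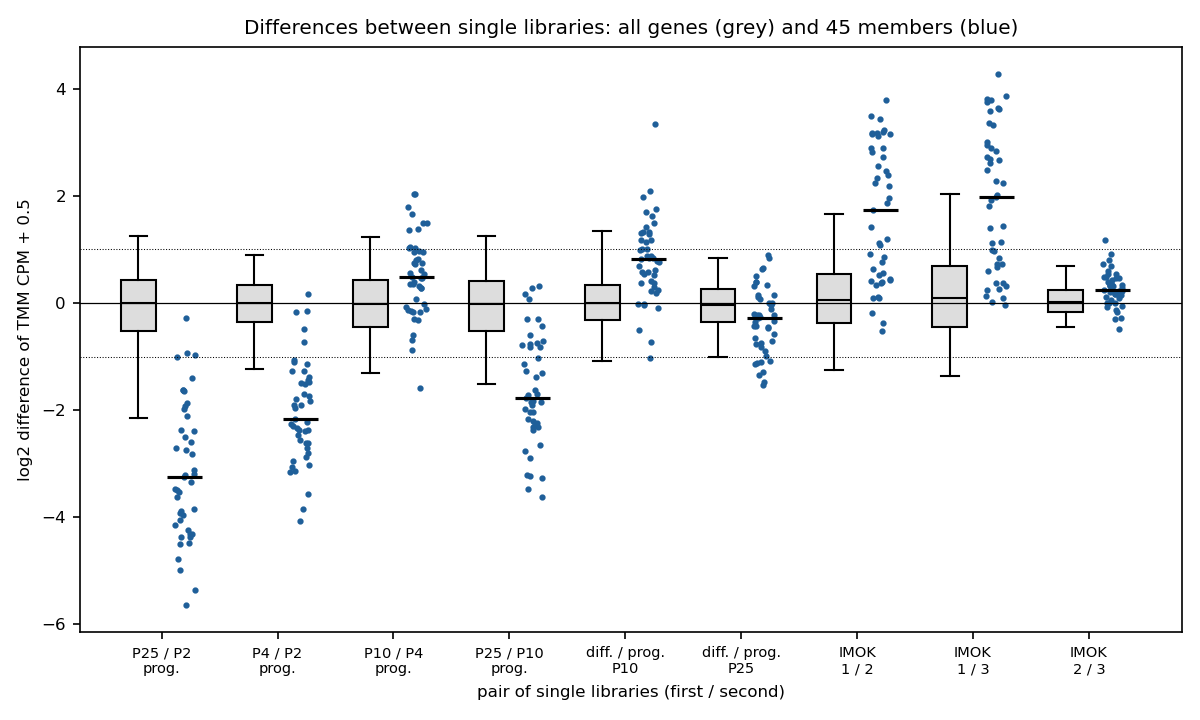
Log2 differences of TMM-scaled CPM with a pseudocount of 0.5 between pairs of single libraries; grey boxes give the median, quartiles and the 5% and 95% points of 13306 genes, blue points are the 45 members with their median as a bar, and dotted lines mark a 2-fold difference. The members lie mostly below the boxes for P4 and P25 against P2 and mostly above them for IMOK replicate 1 against replicates 2 and 3.

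The IMOK libraries, labelled as replicates, differed among themselves in these genes. Replicate 1 was the highest of the 3 for 41 of 45 members, against 48.4% of all genes, with Ifit2, Samd9l, Gbp2 and Gbp3 as the exceptions. Against replicate 2 it was at least 2-fold higher for 27 members (12.2% of all genes), with a median difference of 1.73, and against replicate 3 for 29 members (16.8%), with a median of 1.98. The size of these medians depended on the pseudocount: they were 0.96 and 1.18 with 2, and 2.26 and 2.67 with 0.1. Replicates 2 and 3 differed by a median of 0.24, with 1 member at least 2-fold higher in replicate 2 (1.6%). The largest differences of replicate 1 from replicate 3 were those of Oasl2 (4.28), Ifit1 (3.87) and Oas3 (3.81), genes of the oligoadenylate synthetase and IFIT families. Irf7 (1.17), Igtp (0.91) and Cmpk2 (0.81) had the largest differences of replicate 2 from replicate 3, and Gbp3 (-0.49), Nmi (-0.29) and Cxcl10 (-0.29) the most negative. In replicates 2 and 3, Cxcl10 had 2 and 4 counts and Cmpk2 had 15 and 4, so both differences are uncertain. For this pair 7 members had at most 3 counts in a library. How this spread compared with that of mSGc differed by gene: Irf9 ran from 5.74 to 47.4 TPM in IMOK and from 20.04 to 76.3 TPM in mSGc, while Stat2 ran from 15.8 to 21.5 TPM in IMOK and from 9.13 to 63.0 TPM in mSGc.

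P10 mSGc was compared with IMOK, a contrast the study drew, beside others, to select genes enriched in mSGc. Some members, such as Isg15, Irf7, Oasl1 and Rsad2, are on the list the study chose with these libraries, so their direction is not independent evidence. For 31 of 45 members, against 22.5% of 13306 genes, each P10 library exceeded all 3 of the IMOK libraries. The estimate was higher in mSGc for 39 of 45 (49.4% of 13018 genes tested), with a median log2 fold change of 1.47. At an adjusted p under 0.05, voom called 2 members higher, beside 259 of 13018 genes, and DESeq2 called 20 (8.52%). edgeR's quasi-likelihood F-test (Benjamini-Hochberg adjustment) called 3 members higher (2.34%), and 24 were higher at an unadjusted p under 0.05 (13.1%). The 3 were Stat2 with a log2 fold change of 1.35 (SE 0.179), Trim25 with 1.47 (SE 0.205) and Rsad2 with 4.53 (SE 0.763), at adjusted p of 0.0254, 0.0282 and 0.0405 in edgeR's quasi-likelihood F-test (Benjamini-Hochberg adjustment), each higher in 2 of 2 mSGc libraries than in 3 of 3 IMOK libraries. Without IMOK replicate 1, 33 of 43 members tested were called higher, with 40 at an unadjusted p under 0.05 (5256 of 12602 genes in either direction), and calls over all genes were also more, 1760 higher. The member median was then 2.72. The estimate of Rsad2 ran from 3.18 without P10 in differentiating media to 5.20 without P10 in progenitor media. Leaving out any of the other 4 libraries left 0 members called, where all genes called higher numbered 0 with each P10 library left out in turn, 20 without IMOK replicate 2 and 36 without replicate 3, so those counts of 0 say nothing particular to the members. The members numbered 14 at an unadjusted p under 0.05 without IMOK replicate 2 or without replicate 3, 10 without P10 in differentiating media and 21 without P10 in progenitor media. Over all genes, in either direction, these fits had 1868 of 12717, 2328 of 12815, 2163 of 13522 and 2343 of 13699 at that threshold.

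Trim25, a ubiquitin ligase that activates the RNA sensor Ddx58, was at 62.2 TPM at P2, 32.7 at P4, 51.0 and 67.3 at P10 in progenitor and differentiating media, 25.4 and 36.0 at P25, and 30.6, 21.5 and 20.5 in IMOK. Oasl1, an OAS-like protein that represses translation of Irf7, was at 9.07, 6.92, 6.55, 15.2, 2.105 and 3.30 TPM in mSGc in that order and at 2.60, 0.273 and 0.235 TPM in IMOK. Both genes overlapped IMOK replicate 1 only through the P25 library in progenitor media on the TPM scale. On the TMM scale all 6 mSGc libraries lay above every IMOK library for 3 members, Oasl1, Adar and Trim25, against 9.64% of all genes.

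With all 6 mSGc libraries against IMOK, which uses the same IMOK libraries, 42 of 45 members had a higher estimate in mSGc (50.2% of 12885 genes), with a median of 1.25. edgeR's quasi-likelihood F-test (Benjamini-Hochberg adjustment) called 2 of them higher (6.58%), so the share of members called was no larger than that of all genes. At an unadjusted p under 0.05, 13 were higher (14.9%). At an adjusted p under 0.05, voom called 2 members higher, beside 895 of 12885 genes, and DESeq2 called 11 (11.6%). The 2 were Trim25, with a log2 fold change of 1.12 (SE 0.263), and Oasl1, with 3.03 (SE 0.883), at adjusted p of 0.0194 and 0.0447 in edgeR's quasi-likelihood F-test (Benjamini-Hochberg adjustment). With IMOK replicate 1 left out, 8 members were called, beside 938 of all 13064 genes, 24 had an unadjusted p under 0.05 (4123 genes in either direction), and the member median was 2.76. The estimate of Oasl1 was then 4.87, and 2.58 without IMOK replicate 3. With replicate 2 or replicate 3 left out, no member was called (0 of 45), beside 277 and 326 of all genes called higher, and 5 and 3 had an unadjusted p under 0.05, smaller shares than the 2915 of 13156 and 3290 of 13207 genes in either direction. Leaving out P2, P4 or a P10 library left 1 member called, beside between 602 and 787 genes called higher. Without P2, 8 of 43 members tested had an unadjusted p under 0.05, beside 3797 of 12780 genes.

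Upstream of these genes, none of 11 interferon genes reached 1 TPM in any library. Ifnb1 had 4 counts at P2, or 0.982 TPM, 0 counts in the other mSGc libraries, and 1, 0 and 0 counts in IMOK. All 9 receptor and kinase genes were above 1 TPM in every library. Ifnar1 and Ifnar2, which form the receptor for type I interferon, lay between 14.3 and 21.4 and between 8.63 and 16.1 TPM in mSGc, and between 19.5 and 32.4 and between 13.7 and 30.1 TPM in IMOK. The kinase genes Jak1 and Tyk2 lay between 38.1 and 75.8 and between 15.8 and 22.4 TPM in mSGc. Mavs, the adaptor of the RNA sensors, lay between 22.1 and 29.2 TPM in mSGc and was at 43.3, 24.2 and 23 TPM in IMOK. Receptors and kinases had a median difference of -0.29 from P2 to P25, small beside the -3.26 of the interferon-stimulated genes. Of the 9, 2 were at least 2-fold lower (13.7% of all genes), Ifngr2 (-1.26) and Il10rb (-1.27). Of 8 nucleic acid sensing partners, Tlr3, the endosomal receptor for double-stranded RNA, passed the passage test.

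Tlr3 was at 108.0 TPM at P2, 26.6 at P4, 15.9 and 79.3 at P10 in progenitor and differentiating media, 8.29 and 25.02 at P25, and 21.7, 25.3 and 25.8 in IMOK. Its estimate was -0.93 per doubling of passage (SE 0.120), with an adjusted p of 0.0382 in edgeR's quasi-likelihood F-test (Benjamini-Hochberg adjustment). The call was lost when any library other than P10 in progenitor media was left out, with adjusted p in that test (edgeR's quasi-likelihood F-test, Benjamini-Hochberg adjustment) from 0.0763 without P25 in differentiating media to 0.430 without P2. It was also lost with the filter of 10 counts in every library, with untransformed passage number and with the progenitor libraries alone. Like Samd9l, Tlr3 was higher in differentiating media at both passages. No gene of the receptors and kinases, negative regulators or MHC class I genes passed that test, nor did any of 38 tested among 47 other interferon-stimulated genes, 23 of which had an unadjusted p under 0.05 (1648 of 12451 genes in either direction) and 12 of which DESeq2 called lower (4.65% of all genes).

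The other interferon-stimulated genes had a median difference of -2.05 from P2 to P25, with 26 of 39 at least 2-fold lower (13.7% of all genes) and 0 at least 2-fold higher (1051 of 13306 genes). Ifitm3, a membrane protein that blocks virus entry, was an exception, with 1995 TPM at P2, 2087 TPM at P25 in progenitor media, and 1552, 1423 and 1189 TPM in IMOK. Against IMOK over all mSGc libraries, 3 of 39 were called higher, Ifitm3, Trim12a and Tdrd7, and 2 lower, Ifitm1 and Mov10, beside 848 higher and 1070 lower of all 12885 genes, so these shares were near those of all genes. Ifitm1 was between 0 and 0.777 TPM in mSGc and at 55.9, 12.0 and 4.16 TPM in IMOK, with no overlap. Trim12a had 3, 2 and 3 counts in the IMOK libraries and 12 to 247 counts in mSGc. In the P10 comparison 2 of 39 were called higher (2.34% of all genes), Ifi27l2a and Trim12a; Ifi27l2a was at 33.8 and 211.0 TPM at P10 and at 5.07, 1.00 and 0.539 TPM in IMOK.

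Ifngr1, a receptor chain for interferon gamma, and Myd88, an adaptor of Toll-like receptors, were called higher in all mSGc than in IMOK, with log2 fold changes of 1.01 and 1.06. They were 1 of 9 receptors and kinases and 1 of 8 nucleic acid sensing partners (6.58% of all genes). Irf1, a transcription factor induced by interferon gamma, was called lower at -1.09, between 9.57 and 18.8 TPM in mSGc and between 29.8 and 37.8 TPM in IMOK. It was 1 of 7 upstream transcription factors, beside 1070 of all 12885 genes called lower. Calls of 1 gene per list say nothing particular to these lists. Of 10 MHC class I presentation genes, 8 were at least 2-fold lower at P25 than at P2 in progenitor media (13.7% of all genes), and 1 was called higher against IMOK (6.58%), a share near that of all genes. That gene was H2-T23, which encodes a nonclassical class I molecule, with 63.1 to 154.9 TPM in mSGc and 22.99, 15.1 and 8.24 TPM in IMOK. Of the cell type markers, Cd68 was called lower in all mSGc, and 4 of 8 epithelial markers, Krt14, Cdh1, Cdh3 and Itgb4, higher (6.58% of all genes). Epcam and Trp63 had negative estimates that were not called, and Epcam was between 307.2 and 692.4 TPM in mSGc, below the 777.4 to 851.9 TPM of IMOK.

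Position and promoter sequence are described without a test. The genes were chosen as known interferon-stimulated genes, with several from the same families, so neither is independent of that choice. In the mm9 coordinates of the tables, 19 of the 45 genes lay within 100 kb of another member, in 7 groups. No such share was computed for other genes. The largest group held Oas2, Oas3, Oas1b, Oas1g and Oas1a at chr5:121180342-121357534, and another held Ifit2, Ifit3 and Ifit1 at chr19:34625184-34724499. Neighbours did not always have like levels, as Ifit2 and Ifit1 show. RefSeq promoter sequences of build GRCm38.p6, 250 bases before to 50 bases after the start, were given for 34 members. They were searched on both strands for GAAANNGAA, the core of the interferon-stimulated response element, and for TTCNNNGAA, the gamma-activated site, which can share bases with it. GAAANNGAA was in 21 of the 34 (61.8%, Wilson 95% interval 45% to 76.1%), in 23 of 36 other interferon-stimulated genes (63.9%) and in 2638 of 27025 genes in all (9.76%). TTCNNNGAA was in 7 of 34 members (20.6%) and 9.55% of all genes. In the 250 bases before the start alone, 17 and 5 of the 34 held them, against 8.18% and 8.13% of all genes.

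The matches are printed for members with the smallest p over passage, for those called against IMOK that held one, and for Ifit1, with 20 bases on each side up to the start of transcription, 5′ to 3′ on the strand of the gene. Capitals mark GAAANNGAA or its reverse complement. Isg15 (chr4:156200856-156200916, minus strand) and Ifit1 (chr19:34640760-34640833, plus strand) had 3 matches each, and Bst2 (chr8:71537568-71537622, minus strand), Irgm1 (chr11:48871421-48871470, minus strand) and Oas1g (chr5:120887614-120887651, minus strand) had 2 each. Stat2 (chr10:128270257-128270305, plus strand), Rsad2 (chr12:26456543-26456591, minus strand) and Trim25 (chr11:88999374-88999402, plus strand) had 1 each. Ifit2, Cmpk2 and Oasl1 had none in this window.
Isg15: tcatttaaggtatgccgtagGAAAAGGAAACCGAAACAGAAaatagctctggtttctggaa
Bst2: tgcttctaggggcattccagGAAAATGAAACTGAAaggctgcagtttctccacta
Irgm1: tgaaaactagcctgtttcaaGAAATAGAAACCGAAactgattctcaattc
Oas1g: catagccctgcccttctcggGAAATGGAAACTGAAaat
Ifit1: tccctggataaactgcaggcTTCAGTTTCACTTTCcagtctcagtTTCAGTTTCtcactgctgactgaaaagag
Stat2: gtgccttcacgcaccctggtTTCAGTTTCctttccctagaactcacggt
Rsad2: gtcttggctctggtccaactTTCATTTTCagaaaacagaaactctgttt
Trim25: ccagggcgccgcccctcctgTTCAGTTTC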

How the data were processed

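RNA-seq was measured in 6 mSGc and 3 IMOK libraries. The authors aligned reads to mm9 with TopHat2 2.1.1 and Bowtie2 2.2.6 and counted them with featureCounts 1.5.1; the deposited values are raw counts; strandedness and the treatment of reads with several matches are not given in the sources used here. The deposited tables also give gene length, from which TPM was computed. Counts were fitted with edgeR 4.0.16 (quasi-likelihood, TMM, default filterByExpr, Benjamini-Hochberg over all genes tested, threshold 0.05) in R 4.3.3, with DESeq2 1.42.0 and limma 3.58.1 voom as alternatives beside other filters, no TMM factors and leaving out each library. All 45 members passed the filter in each of the 5 fits. Standard errors are the absolute log2 fold change over the root of F. Differences between single libraries used log2(CPM + 0.5) over genes that reached 10 counts in 2 or more libraries. Total counts ran from 6237884 to 18444963 per library, and 3 counts correspond to 0.163 to 0.481 CPM, which covers counting error only. The scripts were tested on simulated data. The members and lists were chosen with earlier results of these data known. Values in every library are given for a fixed set of regulators, for members called in a fit and, where none was, for the 5 with the smallest p. Where extremes of single-library differences are named, they are the 3 at that end among members at 5 TPM or more in 2 libraries. The ranges of Ifit1 and Ifit3, the P25 levels of Dhx58 and Zbp1 and the printed promoter stretches were chosen after values were seen.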

Additional observations from a re-analysis of the deposited data

How the results depend on the processing

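The number of members called depended on tool and libraries. With DESeq2 it was 22 over passage, 1 for medium, 2 for medium by passage, 20 for P10 mSGc against IMOK and 11 for all mSGc against IMOK, where edgeR called 0, 0, 0, 3 and 2. Over passage it was 4 without a filter and 3 with untransformed passage number, where calls over all genes were also more (142 of 17402 and 112 of 12451 lower, from 55). For all mSGc against IMOK it was 1 without TMM factors, beside 663 of 12885 genes called higher. With at least 10 counts in every library it was 1 of 23 members tested, beside 600 of 10488 genes. Oasl1 was not among those 23. Leaving out each library in turn gave 0 to 7 over passage, 0 to 33 for P10 mSGc and 0 to 8 for all mSGc against IMOK, and 0 to 12 for medium by passage, where only the 4 progenitor libraries could be left out. The medium estimate of Cmpk2 ran from -0.43 to 2.52 when each library was left out, negative without the P10 library in differentiating media. Members at least 2-fold lower at P25 in differentiating media numbered 1 with a pseudocount of 2, and those at least 2-fold higher in IMOK replicate 2 than 3 numbered 6 and 0 with pseudocounts of 0.1 and 2. The causes were not tested. With a pseudocount of 2 the member medians of IMOK replicate 1 against 2 and 3 were 0.96 and 1.18, and with 0.1 they were 2.26 and 2.67. The other counts between libraries stayed within 1.5 times the reported ones. Without TMM factors the median of all genes moved to -0.10 in both comparisons with IMOK and to 0.24 for IMOK replicate 1 against 3, and the member medians kept their sign. The fit of medium paired by passage had 2 pairs. Identity between the OAS, IFIT and Mx proteins was not computed. With 1 library per condition, and 6237884 counts in the shallowest library, members at a few counts give no reliable fold.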

Other observations

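Some genes of the same pathways ran against the members; they were chosen after their values were seen. Mb21d1, the cytosolic DNA sensor cGAS, was at 0.557 TPM in IMOK replicate 1 and at 11.2 and 13.4 TPM in replicates 2 and 3, and in mSGc it was highest at P25, at 13.0 and 14.7 TPM, against 7.18 TPM at P2. Tmem173, the adaptor STING that acts after it, had the opposite order in IMOK, with 12.1, 1.16 and 0.325 TPM. Psmb10, an immunoproteasome subunit, was at 64.5 and 44.4 TPM at P25 and 30.2 TPM at P2, while Psmb8, another subunit, was at 0.769 and 0.260 TPM at P25 and 37.2 TPM at P2.

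Across the 45 members, the difference of P2 from P25 in progenitor media and the difference of IMOK replicate 1 from replicate 3, which share no library, had a Pearson's r of 0.501, against 0.324 across all 13306 genes. Genes are not independent replicates, each difference rests on 1 library per side, and no test was made.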
